A study of Mus musculus with 6 samples.

Results

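The transcripts described here are those of 10 genes of the piRNA pathway and of germ granules: Piwil1, Piwil2, Piwil4, Ddx4, Mael, Tdrd1, Tdrd5, Tdrd6, Tdrd7 and Tdrd9. They were taken as every gene-detecting probe that carries one of these gene names on the array, which gave 13 probes for the 10 genes, among 41174 probes with 27376 gene names. Testis RNA came from 3 male mice in which Prss54, a gene of the serine protease family, was knocked out (Prss54KO) and from 3 wild-type (WT) males. Both genotypes were on a mixed 129Sv/C57BL/6 background and were sampled at 6 to 8 weeks of age. Each mouse was measured on an array of its own with a single dye (Cy3), to find which testis transcripts differ when Prss54 is missing. The sources used here give neither the part of the gene that was disrupted nor the litters, so p-values measure only the spread between these 3 mice per genotype.

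piRNAs are small RNAs of the germ line that are bound by PIWI proteins and guide them to transposon transcripts and other targets. In spermatocytes the proteins of this pathway gather in granules between mitochondria, and in round spermatids in the chromatoid body, a perinuclear granule of RNA and protein. Tudor domain proteins bind methylated arginines of PIWI proteins and hold these granules together, and male mice that lack one of these genes usually stop spermatogenesis and are sterile.

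The processed signal of a spot is its brightness after the scanner software's background treatment, in intensity units. The level is the log2 of that signal minus the log2 of the array's 75th percentile, so a level of 0 is the 75th percentile of that array. Differences are Prss54KO minus WT in level. Median processed signals ran from 203.1 to 219.7 units over the 6 arrays. The share of gene spots marked well above background ran from 66.2% to 74.8%, and 0 spots were saturated. All 9 probes of spermatocyte markers and all 9 of spermatid markers were well above background on all 6 arrays, and 0 of 3 probes of the liver genes Alb, Ttr and Apoa1 were so on any array. The median difference was 0.02 over the spermatocyte probes and 0.04 over the spermatid probes, and 0 of them passed limma's adjusted threshold. It was 0.02 over 5 tested probes of spermatogonia, 0.0039 over 6 of Sertoli cells, -0.04 over 5 of peritubular cells and -0.07 over 5 of macrophages. Single tested probes of endothelium (Cdh5) and epididymis (Lcn9) stood at -0.19 and 0.52. Of all these 0 passed the adjusted threshold. Cdh5 and a Gfra1 probe of spermatogonia (0.16, its other probe 0.02) had an unadjusted p under 0.05 by limma. Of 11 fibroblast marker probes (Col1a1, Col3a1, Dcn, Lum and Pdgfra) 2 were well above background on no array. Of the 11, 8 were tested, 7 of them with a difference below 0 and 0 past the adjusted threshold. Their median difference was -0.48, 2 of the 8 had an unadjusted p under 0.05 by limma, against 3.2% of all probes tested, and 3 of the 8 were lower in Prss54KO with no overlap, against 3.6% of all probes. The 2 with an unadjusted p under 0.05 were a Col1a1 probe at -0.73 (SE 0.28) and a Col3a1 probe at -0.67 (SE 0.25). These markers stood apart in Prss54KO replicate 2, where the median of the tested probes was -1.19 relative to the WT mean, against -0.27 and -0.08 in Prss54KO replicates 1 and 3. In WT replicates 1, 2 and 3 it was -0.06, -0.17 and 0.26. Of 10 tested probes taken for Leydig cell markers 8 were below 0, with a median of -0.06 and 0 past the adjusted threshold. This count and median take in the probes named Rlf, whose match to Insl3 is uncertain, and were not redone without them. Over all probes tested, 53.3% of differences were above 0. Both probes of Star, which carries cholesterol into mitochondria for steroid synthesis, stood at -0.58 and -0.69 (SE 0.24 and 0.28). The genotypes overlapped in both, as WT replicate 2 lay below Prss54KO replicate 2. Cyp17a1 stood at -0.07, and Cyp11a1 at -0.02, -0.04 and, by a dim probe, -1.08 (SE 0.74). Hsd3b6 stood at 0.19. No probe matched Insl3 by name or accession. The probes named Rlf on the array, taken for Insl3 through a synonym only, stood at -0.25, -0.0070 and 0.05. Whether they read Insl3 was not determined. The part of these markers in the values of the piRNA pathway genes was not tested. The arrays stood on 3 slides, Prss54KO replicate 3 on slide 1, Prss54KO replicates 1 and 2 with WT replicate 3 on slide 2, and WT replicates 1 and 2 on slide 3. Slide 2 alone holds both genotypes.

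The single probe of Prss54 gave processed signals of 7381, 9466 and 8416 units in Prss54KO testes, against 22677, 24152 and 26120 units in WT testes. The genotypes did not overlap, and the level was 2.96-fold lower in Prss54KO. The log2 difference of -1.56 had an SE of 0.10 and an adjusted p of 0.108 by limma, which misses the 0.05 threshold. Whether this probe lies in the disrupted part of the gene was not determined here, so it is no check of the genotype.

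None of the 10 genes passed the test for a difference between the genotypes. With limma over all 28913 probes that were well above background on at least 3 arrays, 0 probes (0%) passed an adjusted p of 0.05, and 926 had an unadjusted p under 0.05 (3.2%, with 1.73% higher and 1.48% lower in Prss54KO). Of the 13 probes of the piRNA pathway genes, 12 entered this test, and 0 of the 12 passed at either threshold. Their adjusted p was 0.99992 throughout, and their smallest unadjusted p was 0.152, for Tdrd6. The genotypes did not overlap in 7.81% of all probes tested (4.21% higher and 3.6% lower in Prss54KO) and in 0 of these 12. The differences ran from -0.08 for Piwil1 to 0.16 for Tdrd6, 7 above 0 and 5 below, with a median of 0.014, against a median of 0.0069 over all probes tested. After quantile normalization it was -0.012, against -0.00094 over all probes, and after median scaling -0.0054, against -0.012 over all probes. Every 95% interval of the 12 lay between a level 1.25-fold lower (Piwil4) and a level 1.33-fold higher (Piwil2) in Prss54KO. The residual spread between mice of a genotype had a median SD of 0.083 over the 12 probes, against 0.105 over all probes tested. The probes were not matched for brightness, so these values do not show that the 10 genes vary less. In whole testis, fewer cells of a type and less RNA per cell cannot be told apart.

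**Figure D1:**
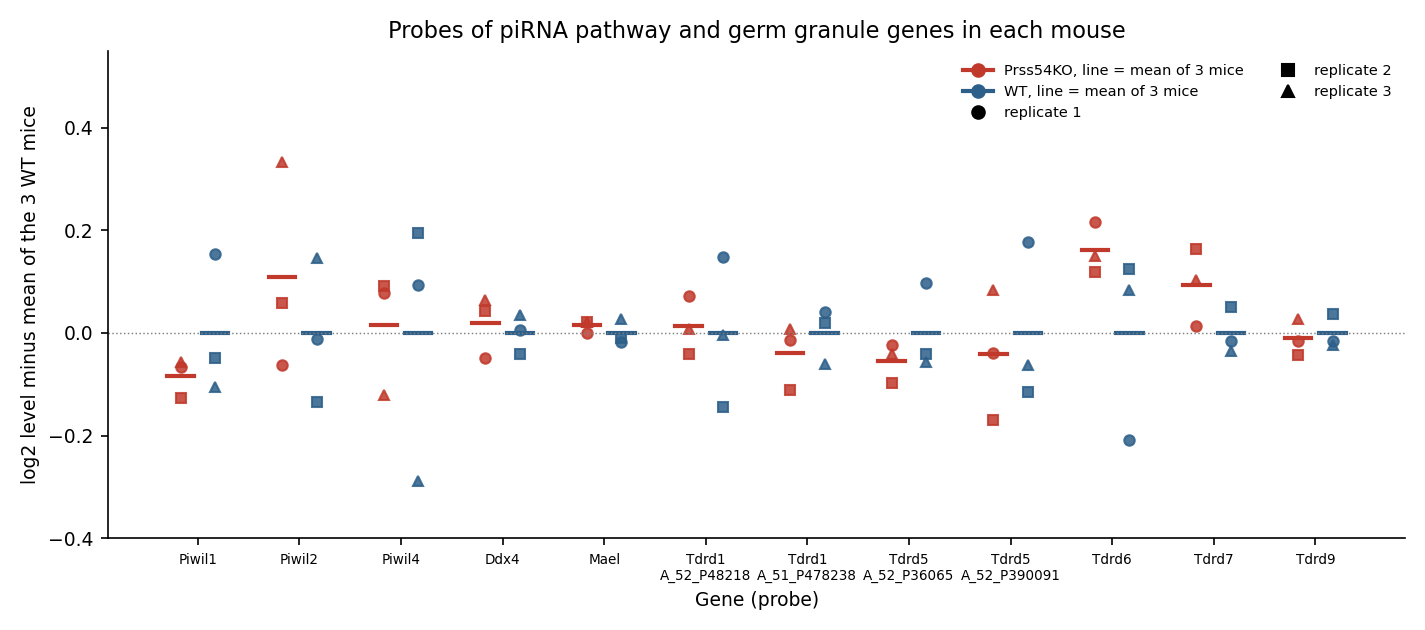
Level of each tested probe in each mouse (log2, minus the mean of the 3 WT mice), with Prss54KO in red on the left and WT in blue on the right of each pair; symbols mark the replicate and lines the mean of 3 mice. The genotypes overlap for every probe, and the widest spread is that of Piwil4 and Piwil2.

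The sequences below are those of probes for the gene with the largest difference (Tdrd6) and for the genes with a second tested probe. They are printed as the deposited files give them, 5′ to 3′, with mm9 positions. Which part of the transcript they read was not determined.
Tdrd6 A_52_P680761, chr17:43759143-43759202, minus strand: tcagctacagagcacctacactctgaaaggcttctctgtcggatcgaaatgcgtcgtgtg
Tdrd5 A_52_P36065, chr1:158185800-158185859, minus strand: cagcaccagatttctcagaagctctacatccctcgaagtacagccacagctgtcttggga
Tdrd5 A_52_P390091, chr1:158207541-158207600, minus strand: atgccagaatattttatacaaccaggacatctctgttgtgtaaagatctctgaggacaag
Tdrd1 A_51_P478238, chr19:56940470-56940951, plus strand: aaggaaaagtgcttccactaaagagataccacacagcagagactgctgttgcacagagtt
Each is 60 bases long and holds, in the direction printed, at least 1 reading frame without a stop codon, as do 9 of the 13 probes. The Tdrd1 probe is placed over 482 bases of the genome, which is longer than the probe, so its position spans bases that the probe does not hold. The other Tdrd1 probe lies 3448 bases away at chr19:56944400-56944459, and the Tdrd5 probes lie 21681 bases apart.

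The PIWI proteins are the Argonaute-like proteins that carry piRNAs. Piwil1 (MIWI) binds the piRNAs of pachytene spermatocytes and round spermatids. Its probe at chr5:129260319-129260378 gave 8911, 8483 and 9046 units in Prss54KO testes, against 10068, 8581 and 8857 units in WT testes. WT replicate 1 was the highest of the 6 mice and the other 2 WT mice lay within or next to the Prss54KO range. The level averaged 2.39 ± 0.04 in Prss54KO and 2.48 ± 0.14 in WT (SD, n = 3 each), a difference of -0.08 with an SE of 0.08. Without WT replicate 1 the difference was -0.0061, and on slide 2 alone it was 0.0088.

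Piwil2 (MILI) acts from the fetal germ cells onwards and takes part in making piRNAs by cutting transposon transcripts. Its probe at chr14:70772497-70772556 gave 2721, 2937 and 3611 units in Prss54KO testes, against 2734, 2462 and 3212 units in WT testes. Prss54KO replicate 3 was the highest mouse, and the other 2 Prss54KO mice lay inside the WT range. The level averaged 0.87 ± 0.20 in Prss54KO and 0.76 ± 0.14 in WT (SD, n = 3 each), a difference of 0.11 (95% interval -0.19 to 0.41). Without Prss54KO replicate 3 the difference was -0.0027, and on slide 2 alone it was -0.15, the opposite direction.

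Piwil4 (MIWI2) is known as a nuclear PIWI protein of fetal male germ cells, where it directs DNA methylation of transposons. Its tested probe, at chr9:14506314-14506373, gave 72.5, 72.7 and 63.7 units in Prss54KO testes, against 71.1, 74.8 and 57.4 units in WT testes, and was well above background on all 6 arrays. WT replicate 3 was the lowest mouse and WT replicate 2 the highest, so the Prss54KO mice lay inside the WT range. The difference was 0.016 (SE 0.14). On slide 2, where WT replicate 3 is the sole WT mouse, it was 0.37. Its WT side rests on the lowest of the 6 mice alone and holds no spread between WT mice, so no p is given. Without WT replicate 3 it was -0.13. Its SD over the 6 arrays, 0.18, was the highest among the 12 probes, which is why its pattern over the mice was set against other genes. Among 5038 probes of other genes with at least that SD and well above background on all 6 arrays, the closest over the 6 arrays were Rbl2, Hdgfrp3 and Bdh1, with Pearson's r of 0.96 each. These were picked as the highest of 5038 values over 6 points that share array scaling, and carry no test.

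The second Piwil4 probe, at chr9:14500821-14500880, was not well above background on any array and was not tested. It read 11.5, 9.44 and 11.9 units in Prss54KO testes, against 7.74, 7.27 and 7.10 units in WT testes. The genotypes did not overlap, and no fold is given because neither was marked well above background. Of the 9389 probes that were below that mark on all 6 arrays, 9.22% likewise had all Prss54KO mice above all WT mice, and 8.42% differed by at least as much on the log2 scale. The median level of those 9389 probes relative to the WT mean was 0.50, 0.32 and -0.42 in Prss54KO replicates 1, 2 and 3, against 0.07, 0.0028 and -0.09 in WT replicates 1, 2 and 3.

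Ddx4, the mouse VASA helicase and a general germ cell marker, gave 31173, 32964 and 34012 units in Prss54KO testes, against 31355, 29827 and 33736 units in WT testes, from a probe at chr13:113388616-113388675. In level Prss54KO replicate 3 was the highest mouse and Prss54KO replicate 1 the lowest, so the WT mice lay inside the Prss54KO range. The level averaged 4.29 ± 0.06 in Prss54KO and 4.27 ± 0.04 in WT (SD, n = 3 each), a difference of 0.020 with a 95% interval of -0.12 to 0.16. On slide 2 alone it was -0.038.

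Mael, whose protein is needed for transposon silencing and sits in the granules, varied least of all 12 probes. Its probe at chr1:168131583-168131642 gave 120329, 121279 and 123174 units in Prss54KO testes, against 115176, 113620 and 125254 units in WT testes. WT mice were both the highest and the lowest in level. The residual SD was 0.0195, and the difference was 0.015 (95% interval -0.10 to 0.13). The direction was the other one after quantile normalization, at -0.0064, after median scaling, at -0.0044, and on slide 2 alone, at -0.017.

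Among the Tudor domain proteins, Tdrd6 had the largest difference of the 12 probes. Its protein is a scaffold of the chromatoid body in round spermatids. The probe gave 25423, 23601 and 24488 units in Prss54KO testes, against 18352, 22708 and 23683 units in WT testes. WT replicate 1 was far below the other 5 mice, and relative to the WT mean WT replicate 2, at 0.13, lay just above Prss54KO replicate 2, at 0.12, so the genotypes overlapped. The level averaged 3.87 ± 0.05 in Prss54KO and 3.71 ± 0.18 in WT (SD, n = 3 each), a difference of 0.16 (SE 0.10, 95% interval -0.08 to 0.40) with an exact permutation p of 0.2, where 0.1 is the smallest that 3 against 3 can give. Without WT replicate 1 the difference was 0.06, and on slide 2 alone 0.08.

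Tdrd7, a Tudor protein of the chromatoid body that is also known for a role in the lens, gave 46756, 51475 and 50162 units in Prss54KO testes, against 44414, 45604 and 46161 units in WT testes, from a probe at chr4:46047484-46047543. In units all Prss54KO mice exceeded all WT mice, but in level, relative to the WT mean, Prss54KO replicate 1 (0.01) lay below WT replicate 2 (0.05). The difference was 0.09 (SE 0.06, 95% interval -0.06 to 0.24), with an exact permutation p of 0.2. It stayed above 0 with any single array left out (0.06 to 0.13) and was 0.12 on slide 2 alone.

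Tdrd1 works with Piwil2 in the granules between mitochondria. Its probe A_52_P48218 gave 28491, 26160 and 27462 units in Prss54KO testes, against 29105, 23341 and 27592 units in WT testes, a difference of 0.013 (SE 0.09) and on slide 2 alone of 0.020. The highest and the lowest mouse were both WT. The other probe, A_51_P478238, gave 1583, 1469 and 1621 units in Prss54KO testes, against 1593, 1541 and 1566 units in WT testes, a difference of -0.039 (SE 0.06) and on slide 2 alone of -0.0028. In level both probes were highest in WT replicate 1, but the lowest mouse was WT replicate 2 by the first and Prss54KO replicate 2 by the second.

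Tdrd5, whose protein is needed for the assembly of the chromatoid body, was read by 2 probes that in level were both highest in WT replicate 1 and lowest in Prss54KO replicate 2, although in units WT replicate 2 read lowest. Probe A_52_P36065 gave 4557, 4299 and 4540 units in Prss54KO testes, against 4801, 4284 and 4548 units in WT testes, and differed by -0.05 (SE 0.06), on slide 2 alone by -0.0038. Probe A_52_P390091 gave 308.3, 279.8 and 338.8 units in Prss54KO testes, against 347.5, 278.3 and 309.9 units in WT testes, and differed by -0.041 (SE 0.10), on slide 2 alone by -0.042. Both intervals include 0, -0.21 to 0.10 for the first and -0.30 to 0.21 for the second. Without WT replicate 1 they were -0.0051 and 0.05.

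Tdrd9, a helicase with a Tudor domain that acts with Piwil4 in fetal germ cells, gave 8117, 7905 and 8426 units in Prss54KO testes, against 7867, 8010 and 8243 units in WT testes, from a probe at chr12:113306902-113306961. In level WT replicate 2 was the highest mouse and Prss54KO replicate 2 the lowest. The level averaged 2.28 ± 0.04 in Prss54KO and 2.29 ± 0.03 in WT (SD, n = 3 each), and the difference was -0.010 (SE 0.05, 95% interval -0.13 to 0.11), on slide 2 alone -0.0058.

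**Figure D2:**
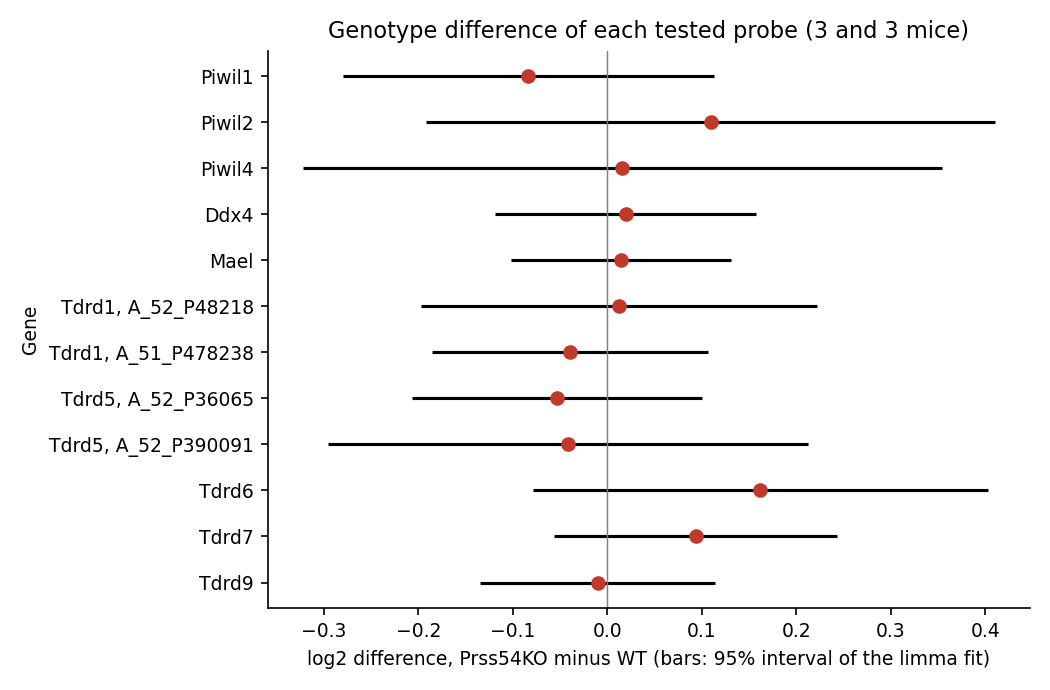
Difference in level between Prss54KO and WT (log2) for each tested probe, with the 95% interval of the limma fit over 3 and 3 mice. Every interval includes 0; the points run from -0.08 for Piwil1 to 0.16 for Tdrd6.

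**Figure D3:**
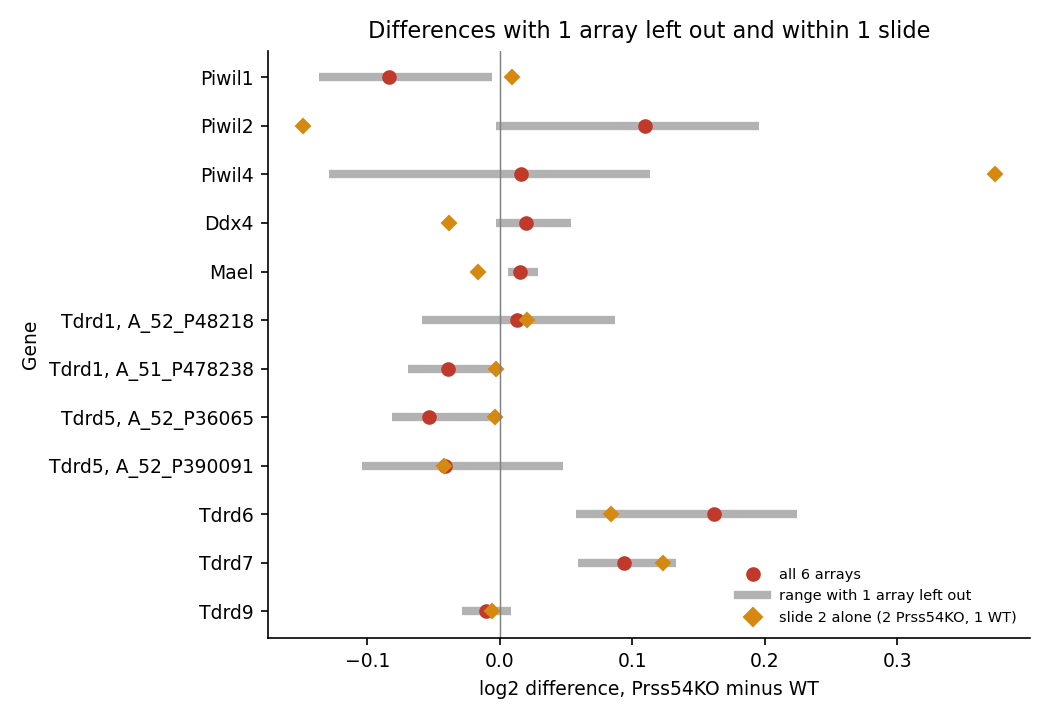
The same differences with all 6 arrays (red), their range when each array was left out in turn (grey) and within slide 2 alone, with 2 Prss54KO mice and 1 WT mouse (orange). Piwil4 moved most, at 0.37 on slide 2 and 0.016 with all arrays, and Piwil2 was -0.15 there.

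In level, WT replicate 1 was the highest or the lowest mouse for 7 of the 12 probes (58.3%), against 32.7% of all probes tested. It was the highest for Piwil1 and for both probes of Tdrd1 and of Tdrd5, and the lowest for Tdrd6 and Mael. Prss54KO replicate 2 was the lowest for 5 of the 12 (41.7%), against 17% of all probes tested. Probes of 1 gene share its transcripts, and these shares carry no test. Relative to the WT mean, the median of the 12 probes was -0.015, -0.0092 and 0.025 in Prss54KO replicates 1, 2 and 3, against 0.023, -0.025 and -0.029 in WT replicates 1, 2 and 3, so the Prss54KO medians differed from each other no more than those of WT mice did.

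A further 35 genes of the pathway were set beside these 10, of which 31 are on the array with 54 probes. Of these probes 53 were tested, and 0 rose and 0 fell by limma's adjusted p. At an unadjusted p under 0.05 by limma there was 1 of 53, against 3.2% of all probes tested, and in 4 of 53 the genotypes did not overlap, against 7.81% of all probes tested. Both counts are near or under the shares over the whole array, so the probes without overlap that are named here are described by their values only. The median difference was 0.00089, with 27 probes above 0 and 26 below.

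The proteins that make and trim piRNAs (10 of 11 genes on the array, 15 probes) had a median difference of 0.01. Exd1, whose protein takes part in the production of piRNAs, gave 4912, 5188 and 4885 units in Prss54KO testes, against 4567, 4406 and 4595 units in WT testes, and differed by 0.11 (SE 0.06) with no overlap in level. Tdrkh, a mitochondrial Tudor protein that recruits PIWI proteins for trimming, did not overlap either, at -0.06 (SE 0.05), and its other probe stood at -0.15 (SE 0.17). Pld6, the mitochondrial nuclease that cuts piRNA precursors, stood at -0.12 (SE 0.09).

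Of 4 other Tudor protein genes with 7 probes, the median difference was -0.05 and 6 probes were below 0. Stk31, a germ cell protein with Tudor and kinase domains, stood at -0.09 (SE 0.05), with all Prss54KO mice below all WT mice in level. Tdrd3 stood at -0.15 (SE 0.13) by its probe A_52_P124440 and at -0.04 by each of the others, and Snd1, a Tudor protein with nuclease domains, at -0.05 (SE 0.07).

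Genes of nuclear silencing (4 of 5 on the array, 6 tested probes) had a median of -0.04. Dnmt3l, a cofactor of DNA methylation in germ cells, stood at 0.19 (SE 0.12), the methyltransferase gene Dnmt3a at -0.17 (SE 0.11) by the probe with the smallest p and at -0.0064 and 0.0090 by the others, and Tex15 at -0.07 (SE 0.10). For transcription of the piRNA clusters, the 3 probes of Mybl1 (A-MYB), the activator of pachytene piRNA precursors and of many genes of the pathway, stood at 0.23, 0.07 and 0.08 (SE 0.12, 0.05 and 0.10), and Tcfl5, another transcription factor of spermatocytes, at -0.016. The probe of Mybl1 with the largest value gave 97.4, 69.1 and 80.0 units in Prss54KO testes, against 66.1, 65.5 and 72.9 units in WT testes, so Prss54KO replicate 1 was the highest and Prss54KO replicate 2 lay inside the WT range.

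The methyltransferase Prmt5 and its partner Wdr77, which modify the arginines that Tudor domains bind, gave 5 probes between -0.05 and 0.03. Prmt5 itself stood at -0.03 (SE 0.07). Other chromatoid body proteins (9 genes, 16 probes) had a median of 0.0065. Dicer1, the nuclease of microRNA processing, gave 274.7, 288.8 and 255.0 units in Prss54KO testes, against 229.6, 234.0 and 241.2 units in WT testes, by its probe A_51_P333060. All Prss54KO mice lay above all WT mice, the difference was 0.18 (SE 0.07) and limma's unadjusted p 0.0334, with an adjusted p of 0.99992. The other Dicer1 probe stood at -0.04 (SE 0.14). The kinesin gene Kif17 stood at 0.20 (SE 0.13) by the probe with the smallest p, and at 0.10 and 0.19 by its other probes. The Argonaute gene Ago2 stood at -0.32 (SE 0.23) by the probe with the smallest p, but at -0.02 and 0.0087 by its other probes.

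**Figure D4:**
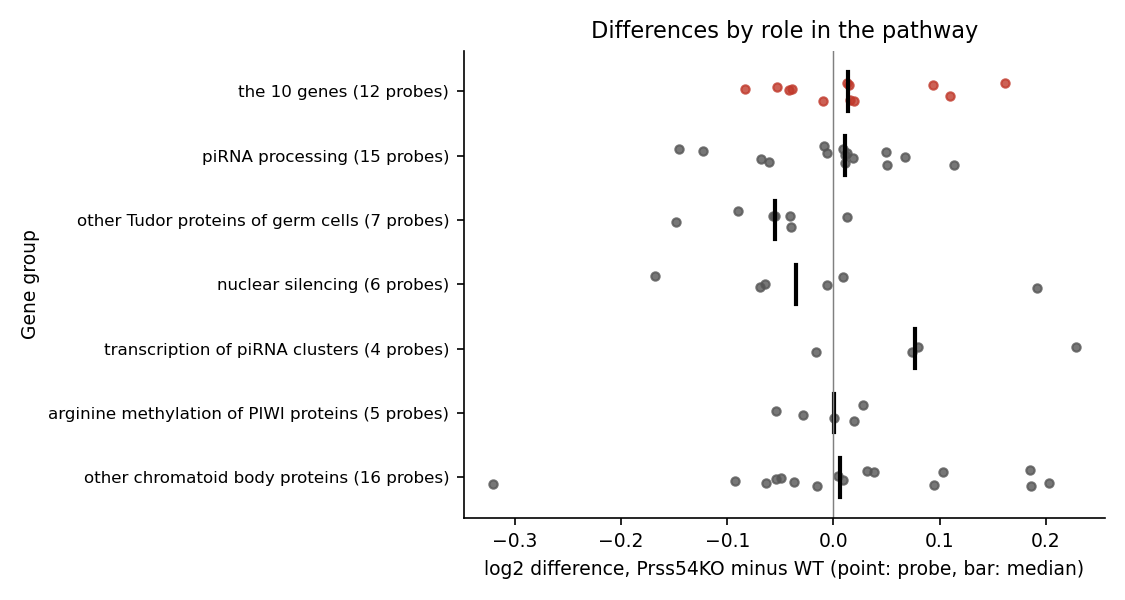
Difference in level between Prss54KO and WT (log2) for each tested probe of the 10 genes (red) and of the other pathway genes by role (grey), with the median of each group as a bar. The 10 genes lie between -0.08 and 0.16, and the other probes between -0.32 and 0.23.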

How the data were processed

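RNA was labelled with Cy3 from 0.5 ug per sample, per the labels' protocols. Intensity per spot comes from the authors' scanner output as deposited, written by Agilent Feature Extraction (10.7 per the submitters' processing notes, 10.7.3.1 per the file headers), with mm9 probe positions. The other deposited columns used hold marks of spots well above background, saturated or outlying. The deposited series table holds log2 values, quantile normalized between arrays, and was used as an alternative only.

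Levels are log2 processed signals from which the 75th percentile of each array was subtracted. Outlier spots were left out and spots of a probe averaged. Each probe was kept separate, and tested if 3 or more of the 6 arrays marked it well above background. Genotypes were compared with limma 3.58.1 (R 4.3.3; lmFit, eBayes, two-sided), adjusted by Benjamini-Hochberg over all 28913 probes, threshold 0.05. Of the 13 probes, 11 matched RefSeq (GRCm38.p6, names only) by accession, and the 2 Piwil4 probes are named by the files. The code was tested on simulated data. Exon and UTR positions are not given, since no mm9 annotation was used here; the number of arrays limits the precision.

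Genes and lists were chosen with earlier results of these data known. Named are Prss54, the 10 genes, per group of other pathway genes the 3 probes with the smallest p, further probes of those genes where they differ, and 3 genes closest to the most variable probe. Tcfl5 was named after its values were seen.

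Alternatives were quantile or median scaling, normexp (offset 50), dropping the filter on dim probes or asking for all 6 arrays, the authors' table, slide blocks (fixed, random) or slide 2 alone, a replicate block, array weights, an intensity trend with robust variance, 1 probe a gene, and each array left out.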

Additional observations from a re-analysis of the deposited data

How the results depend on the processing

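Of the 19 alternatives, the slide as a fixed block and slide 2 alone compare the genotypes within slide 2 only. WT replicate 3 is the sole WT mouse there, so no p or count of probes past a threshold is given for these. Under the others no probe of the 10 genes passed limma's adjusted threshold, and their lowest adjusted p was 0.868 (Tdrd6, without WT replicate 3). Over the whole array the count of probes past the threshold was 1 with normexp and 1 with the filter on all 6 arrays (Prss54 in both). It was 2 with the intensity trend and robust variance (Prss54 and Cngb1), and 0 in the other alternatives apart from the fixed slide block and slide 2 alone. At an unadjusted p under 0.05 the count was 1672 without the filter on dim probes and 1509 with array weights; with single arrays left out it was lowest, 578, when WT replicate 1 was dropped and highest, 1803, when WT replicate 3 was dropped, against 926 with all arrays. The median difference of the 12 probes was -0.016 with array weights, and lay between -0.011 and 0.035 when single arrays were dropped. Over the 19 alternatives the direction of a single probe changed in 31 values and held in 195, and the cause was not tested. These counts are no measure of stability. Dropping or tightening the filter on dim probes, the intensity trend, 1 probe a gene and the replicate block leave the difference of a probe as it was. The fixed slide block and slide 2 alone give the same differences and are both counted. With quantile normalization Piwil4 was -0.019 and Mael -0.0064, with median scaling Piwil4 -0.0033, Mael -0.0044 and Tdrd1 (A_52_P48218) -0.00645, and with the authors' table Piwil4 -0.020 and Mael -0.0067. With normexp Tdrd5 (A_52_P390091) was 0.0025 and Tdrd9 0.0066. With the slide as a fixed block, as on slide 2 alone, Piwil1 was 0.0088, Piwil2 -0.15, Ddx4 -0.038 and Mael -0.017; as a random block no direction of the 12 probes turned. With array weights Piwil4 was -0.019 and Tdrd1 (A_52_P48218) -0.015. With 1 array left out Piwil2 ran from -0.0027 to 0.20, Piwil4 from -0.13 to 0.11, Ddx4 from -0.0030 to 0.054, Tdrd1 (A_52_P48218) from -0.059 to 0.087, Tdrd5 (A_52_P390091) from -0.10 to 0.048 and Tdrd9 from -0.029 to 0.0087.

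Same-numbered mice did not pair throughout: the deviations from the genotype means correlated at -0.04, 0.02 and -0.15 over probes. Prss54KO replicates 1 and 3 correlated best with WT replicates 3 and 2, at 0.16 and 0.13. Prss54KO replicate 2 correlated best with its own number, WT replicate 2, at 0.02. With a replicate block 0 probes passed, and 1129 had an unadjusted p under 0.05; the median difference of the 12 probes, 0.014, cannot move under this block, since each number occurs once per genotype.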
